A study of Mus musculus with 7 samples.

Results

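The genes described are 10 genes that mark the macrophages of the splenic red pulp and the recycling of iron: Spic, Csf1r, Vcam1, Hmox1, Slc40a1, Cd163, C1qa, C1qb, C1qc and Apoe. They were taken by symbol from the 24341 genes of the deposited expression table, and all 10 were measured. Their levels were read in splenic cells sorted as B-cell precursors (BCP) from 3 leukemic and 4 preleukemic Eμ-Ret mice, each sample from a separate mouse. Leukemic mice were moribund, with overt disease, and preleukemic mice were younger and healthy. Every mouse of both groups was hemizygous for the transgene, an oncogenic Ret fusion under the immunoglobulin heavy chain enhancer, on a BALB/c background. No transgene-negative sample was analysed here, so both groups carry the transgene and differ in disease stage and in age together, which cannot be told apart. Per the labels, cells of both groups were sorted by flow cytometry as BCP, which the study defines by intermediate B220 and CD43 and high BP-1. For its cultures the study used leukemic spleen cells mostly without enrichment, and the purity of the sequenced samples was not given in the sources used here.

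Red pulp macrophages engulf worn-out red cells, break down their heme and return the iron to the blood. Spi-C is the transcription factor that these macrophages require, heme oxygenase opens the heme ring, and ferroportin carries the freed iron out of the cell. The C1q chains form the recognition part of the first complement component, which tissue macrophages make, and which binds to dying cells and immune complexes. None of these genes is a marker of B-cell precursors.

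Levels are FPKM, fragments scaled to transcript length and depth, with a lowest listed value of 0.01. Depth read from the steps of low values was 13650000 to 16150000 fragments per sample. The sorted cells carried a BCP marker: Enpep, the gene of BP-1, ranged from 19.1 to 102 FPKM in leukemic and from 134 to 210 in preleukemic samples. Its difference (leukemic minus preleukemic, on log2(FPKM + 1)) of -1.70 was not called (adjusted p = 0.0688 with limma), but was called without leukemic replicate 1 (-0.98, adjusted p = 0.0247) and without leukemic replicate 2 (-2.16, adjusted p = 0.0370). Markers of other cells were present as well, and preleukemic replicate 1 held 2.36 times the red cell precursor sum of the next preleukemic sample, but not of the 10 macrophage and iron genes, whose sum there was 24.7 FPKM in a preleukemic range of 19.2 to 29.8. In bulk samples, fewer cells of a type and less RNA per cell cannot be told apart.

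Most of the 10 genes were higher in leukemic samples. Of the 10 genes, 9 could be tested and 6 of them rose: Apoe, C1qa, Csf1r, Hmox1, Slc40a1 and Vcam1. This count was 2 without preleukemic replicate 1, 1 without preleukemic replicate 2, 3 or 4, 4 without leukemic replicate 3 and 9 without leukemic replicate 1. Spic, C1qb and C1qc were not called, none was called lower, and Cd163 was too low to test. Across all 10541 genes tested, 14.7% were called, 8.47% higher and 6.26% lower. A gene was called at an adjusted p under 0.05 in limma on log2(FPKM + 1), and every difference given below is leukemic minus preleukemic on that scale. The median difference was 1.99 over the 9 genes tested and -0.02 over all genes tested. In 9 of the 10 genes every leukemic sample lay above every preleukemic sample, against 14.9% of all genes tested. The filter asked for a summed FPKM of at least 10, and Spic passed it only through its leukemic samples, since its preleukemic mean alone would not have reached it.

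**Figure D1:**
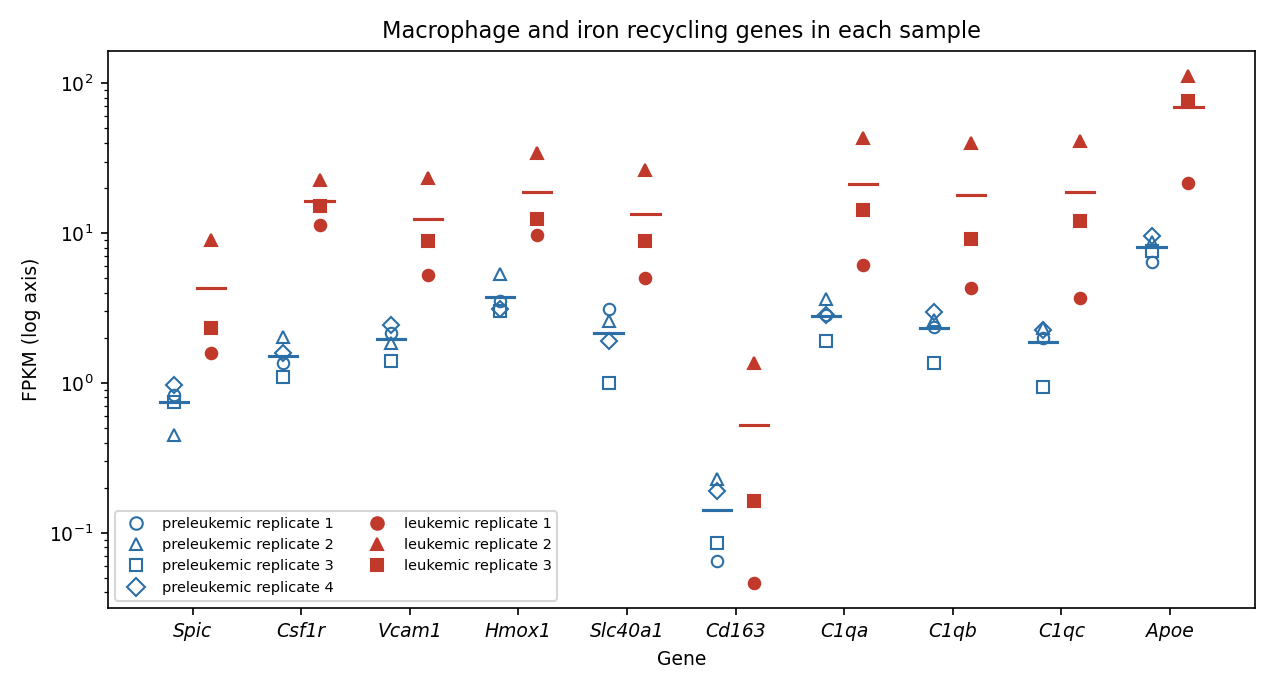
FPKM (log axis) of the 10 genes in each of the 4 preleukemic (open) and 3 leukemic (filled) samples, with the shape giving the replicate and short lines the group means. Leukemic replicate 2 is the highest point for all 10 genes, and only for Cd163 do the groups overlap.

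The 3 leukemic samples differed from each other in the same order for nearly every gene. Leukemic replicate 2 was the highest of the 7 samples for 10 of 10 genes, and over all genes tested 15.5% had their highest value there. For 9 of the 10 genes the order was leukemic replicate 2, then 3, then 1, then every preleukemic sample, an order found in 4.21% of all genes tested. The exception was Cd163. The ratio of the highest to the lowest leukemic sample ran from 2.0 for Csf1r to 11.0 for C1qc among the 9 genes tested. Summed over the 10 genes, FPKM was 68.6, 353 and 159 in leukemic replicates 1, 2 and 3 and 19.2 to 29.8 in the preleukemic samples.

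The C1q genes lie side by side on chromosome 4 (GRCm38, minus strand), from 136880145 to 136898844, and each has 3 exons. Upstream sequences of C1qb and C1qc are shown because these neighbours moved together with C1qa, and because they hold the only matches found in the promoter windows of the 10 genes. The 250 bases before each RefSeq start site (GRCm38.p6, minus strand, C1qb at chr4:136886201-136886450 and C1qc at chr4:136892915-136893164) are, with the match in capitals:
C1qb: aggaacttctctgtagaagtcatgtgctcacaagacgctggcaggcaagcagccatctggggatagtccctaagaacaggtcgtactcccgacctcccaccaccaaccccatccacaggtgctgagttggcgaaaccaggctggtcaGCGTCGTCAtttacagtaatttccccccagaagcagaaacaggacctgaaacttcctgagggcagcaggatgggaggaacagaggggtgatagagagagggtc
C1qc: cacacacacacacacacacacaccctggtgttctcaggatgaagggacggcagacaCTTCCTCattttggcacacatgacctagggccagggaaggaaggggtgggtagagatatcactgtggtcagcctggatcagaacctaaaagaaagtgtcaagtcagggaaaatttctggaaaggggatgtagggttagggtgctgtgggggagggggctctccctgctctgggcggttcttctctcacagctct
In C1qc, bases 57 to 63 read CTTCCTC, the reverse strand of GAGGAAG, a letter string bound by PU.1 and Spi-C, found on either strand in 13.6% of 32851 promoter windows (250 bases before to 50 after the start). In C1qb, bases 148 to 156 read GCGTCGTCA, the reverse strand of TGACNNNGC, the core of the antioxidant response element, found in 12.4% of windows. The other strings searched on both strands were TGCTGAC (Maf, 4.67% of windows), TGTGGTT (Runx, 5.27%), GGGNNTTCC (NF-kB, 5.82%) and CACGTG (E-box, 7.15%). TGCTGAC and TGACNNNGC can overlap by their shared TGAC. Windows were at hand for 5 of the 10 genes (7 windows), and those of Cd163, Apoe and Spic held none of the 6 strings. A match describes letters in a window and was not tested for binding.

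C1qa, which encodes the A chain of C1q, measured 6.17, 43.1 and 14.3 FPKM in leukemic replicates 1 to 3 and 2.84, 3.66, 1.90 and 2.84 in preleukemic replicates 1 to 4. The lowest leukemic value was 1.69 times the highest preleukemic value. The difference was 2.2 (SE 0.55, adjusted p = 0.0402 with limma). C1qb, the B chain gene, measured 4.28, 40.2 and 9.06 FPKM in leukemic and 2.36, 2.63, 1.35 and 2.99 in preleukemic samples. Its difference of 1.99 was not called (95% interval 0.52 to 3.46, adjusted p = 0.0737 with limma). C1qc, the C chain gene, measured 3.71, 40.9 and 12.1 FPKM in leukemic and 1.98, 2.33, 0.940 and 2.24 in preleukemic samples. Its difference of 2.29 was not called (95% interval 0.75 to 3.83, adjusted p = 0.0571 with limma). For each of these 3 genes the groups did not overlap, but leukemic replicate 1 lay close to the preleukemic samples and replicate 2 far above all others.

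Whether C1q passed the test depended on single samples. Without leukemic replicate 1 all 3 genes were called, with adjusted p = 0.0118 for C1qa, 0.0242 for C1qb and 0.0128 for C1qc (limma). Without leukemic replicate 2 the differences were 1.48, 1.16 and 1.48, and C1qa was still called (adjusted p = 0.0343 with limma). C1qa lost its call without leukemic replicate 3 (adjusted p = 0.0714 with limma), without any 1 of the 4 preleukemic samples (0.0817, 0.0829, 0.107 and 0.110) and with no filter on low values (0.0630).

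Within a sample the 3 chains stayed near each other. C1qb over C1qa ran from 0.634 to 0.933 in leukemic and from 0.712 to 1.05 in preleukemic samples. C1qc over C1qa ran from 0.602 to 0.949 and from 0.494 to 0.790. Both ratios overlapped between the groups, while C1qa itself spanned 1.90 to 43.1 FPKM.

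Other genes of complement moved in part. Of 26 genes measured, 9 could be tested, 4 were called higher and none lower, and the median difference was 0.50. The count of calls ran from 1 to 4 over the fits that left out 1 sample, with 1 call without preleukemic replicate 3 or 4 and 2 without preleukemic replicate 2. The highest expressed were Cd93, a surface protein also found on B-cell precursors, at 109 FPKM in leukemic and 167 in preleukemic samples (difference -0.73, adjusted p = 0.147 with limma), and the regulator Cr1l at 56.1 and 62.5 (difference -0.15, adjusted p = 0.322 with limma). Neither was called. C3, the central component and chosen after its values were seen, rose from 1.13 ± 0.626 (SD, n = 4) to 10.7 ± 2.63 FPKM (SD, n = 3), a difference of 2.49 (adjusted p = 0.00734 with limma). C3 and Cd59a passed the filter only through their leukemic samples, and of the other 7 genes 2 were called higher.

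Csf1r encodes the receptor that macrophages need for survival and lies on chromosome 18 (61105572 to 61131139, plus strand, 22 exons). Its FPKM was 11.3, 22.6 and 15.2 in leukemic and 1.37, 2.03, 1.10 and 1.60 in preleukemic samples. The groups stood farther apart than for any other of the 10 genes, with the lowest leukemic value 5.55 times the highest preleukemic value. The difference was 2.74 (SE 0.24, adjusted p = 0.00514 with limma), and Csf1r was called without any 1 of the 7 samples. Of its ligands, Csf1 (chosen after its values were seen) measured 1.89, 8.76 and 2.72 FPKM in leukemic and 4.39, 13.7, 6.71 and 7.11 in preleukemic samples, which overlapped (difference -0.83, adjusted p = 0.255 with limma). Il34 was at most 0.0845 FPKM in every sample and was not tested.

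Spic (chromosome 10, 88675270 to 88683023, minus strand, 6 exons) measured 1.58, 9.00 and 2.31 FPKM in leukemic and 0.827, 0.451, 0.752 and 0.967 in preleukemic samples. In estimated fragments these values were about 38, 217 and 58, and 19, 10, 16 and 21. The groups did not overlap, but leukemic replicate 1 was 1.64 times the highest preleukemic sample while leukemic replicate 2 was 5.68 times leukemic replicate 1. The difference of 1.34 was not called (95% interval 0.29 to 2.40, adjusted p = 0.0859 with limma). It was called without leukemic replicate 1 (1.73, adjusted p = 0.0448 with limma), and it fell to 0.75 without leukemic replicate 2 (adjusted p = 0.0841 with limma).

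Vcam1 encodes the adhesion protein by which red pulp macrophages and stromal cells hold cells that carry its integrin partners (chromosome 3, 116110020 to 116129688, minus strand, 9 exons). Its FPKM was 5.29, 23.2 and 8.86 in leukemic and 2.16, 1.84, 1.40 and 2.45 in preleukemic samples. All leukemic values lay above the preleukemic range, the lowest by 2.16 times. The difference was 1.96 (SE 0.42, adjusted p = 0.0262 with limma), and 1.42 without leukemic replicate 2 (adjusted p = 0.0189 with limma). The call was lost without any 1 of the preleukemic samples (adjusted p = 0.0549, 0.0706, 0.0776 and 0.0754 with limma).

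Of the integrin chains that bind Vcam1, Itgb1 and Itga4 were abundant in both groups. In leukemic samples Itgb1 measured 64.7 ± 8.53 FPKM (SD, n = 3), against 56.9 ± 3.61 (SD, n = 4) in preleukemic samples, and Itga4 measured 60.9 ± 20.3 and 62.3 ± 5.81. Their differences were 0.18 (adjusted p = 0.265 with limma) and -0.08 (adjusted p = 0.812 with limma). Itgb7 measured 7.27 ± 4.78 FPKM in leukemic and 2.40 ± 0.357 in preleukemic samples, which overlapped (difference 1.06, adjusted p = 0.147 with limma). Itga9 was too low to test, at 0.410 to 1.48 FPKM in leukemic and 0.151 to 0.194 in preleukemic samples, with no overlap. Of the 4 chains on the list 3 could be tested, and limma called 0 of them, while leaving out leukemic replicate 1 gave 1 call.

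Hmox1, the inducible heme oxygenase (chromosome 8, 75093618 to 75100593, plus strand, 5 exons), measured 9.78, 34.2 and 12.5 FPKM in leukemic and 3.55, 5.33, 3.01 and 3.10 in preleukemic samples. The lowest leukemic value was 1.83 times the highest preleukemic value. The difference was 1.89 (SE 0.40, adjusted p = 0.0250 with limma) and 1.37 without leukemic replicate 2 (adjusted p = 0.0164 with limma). The call was lost without any 1 of the preleukemic samples (adjusted p = 0.0568, 0.0535, 0.0755 and 0.0826 with limma).

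Hmox2, the constitutive heme oxygenase, was not called. It measured 108, 95.1 and 76.6 FPKM in leukemic and 111 to 119 in preleukemic samples, with no overlap between the groups, and the difference was -0.32 (adjusted p = 0.102 with limma). It was called with quantile normalization (-0.39, adjusted p = 0.0462) and without leukemic replicate 1 (-0.43, adjusted p = 0.0379 with limma). Hmox2 was the more abundant of the pair in every sample, at 21.5 to 37.8 times Hmox1 in preleukemic samples and 11.0, 2.78 and 6.12 times in leukemic replicates 1 to 3. This ratio, added after the values were seen and not tested, did not overlap between the groups.

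Slc40a1 encodes ferroportin, the iron exporter (chromosome 1, 45908070 to 45925594, minus strand, 8 exons). Its FPKM was 4.99, 26.4 and 8.87 in leukemic and 3.09, 2.61, 0.998 and 1.91 in preleukemic samples. The groups did not overlap, and the lowest leukemic value was 1.61 times the highest preleukemic value. The difference was 1.95 (SE 0.51, adjusted p = 0.0437 with limma) and 1.34 without leukemic replicate 2 (adjusted p = 0.0468 with limma). The call was lost without leukemic replicate 3 (adjusted p = 0.0696 with limma), without any 1 of the preleukemic samples (0.0696, 0.0891, 0.111 and 0.117) and with no filter on low values (0.0676). Hmox1 over Slc40a1 ran from 1.29 to 1.96 in leukemic and from 1.15 to 3.01 in preleukemic samples, so the balance of the pair overlapped between the groups.

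Cd163 encodes the receptor that takes up hemoglobin bound to haptoglobin (chromosome 6, 124304651 to 124330527, plus strand, 17 exons in the transcript counted, 1 of 2 with a RefSeq match). It was the lowest of the 10 genes, at 0.0466, 1.36 and 0.162 FPKM in leukemic and 0.0645, 0.228, 0.0856 and 0.192 in preleukemic samples. In estimated fragments these were about 3, 89 and 11, and 4, 14, 5 and 11. Leukemic replicate 2 stood alone above the other 6 samples, and the remaining leukemic samples lay within or below the preleukemic range. Summed over the 7 samples these are about 137 fragments. Cd163 did not pass the filter on summed FPKM, and with no filter the difference was 0.32 (95% interval -0.34 to 0.98, adjusted p = 0.480 with limma).

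**Figure D2:**
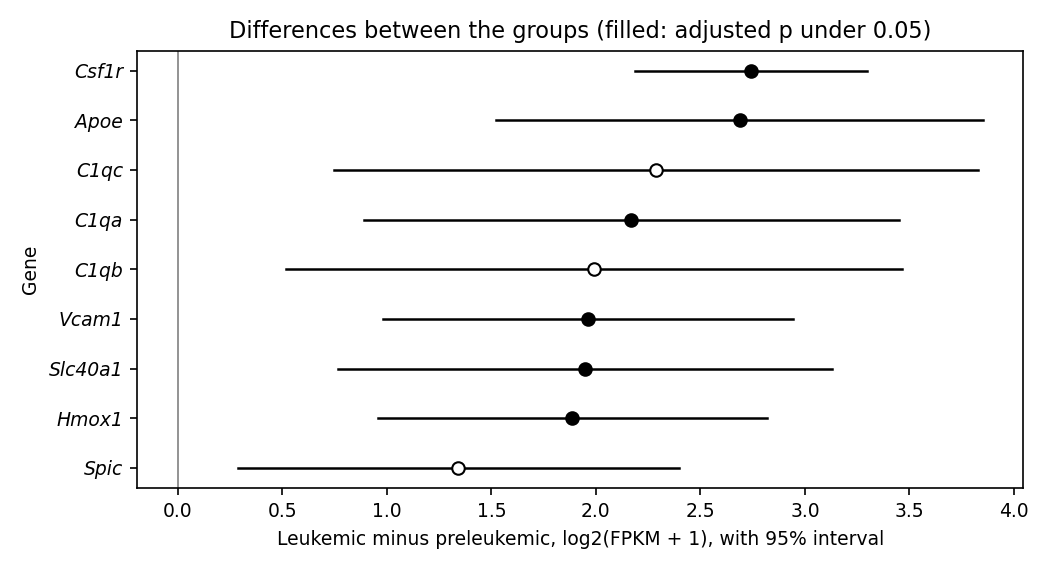
Leukemic minus preleukemic difference on the log2(FPKM + 1) scale with its 95% interval for the 9 genes tested, filled where the adjusted p was under 0.05. Csf1r has the largest difference, 2.74, and the narrowest interval, and the open points are Spic, C1qb and C1qc.

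Other genes of heme and iron handling moved in part. Of 30 genes on the list 28 were measured and 22 tested. Of these 9 were called higher, 1 lower and 12 were not called, with a median difference of 0.33. That is 40.9% called higher, beside 8.47% of all genes tested, and 1 of the 9, Slc11a1, passed the filter only through its leukemic samples. The count of 10 calls ran from 0 to 11 when 1 sample was left out: 0 without preleukemic replicate 4, 1 without replicate 3, 2 without replicate 2 and 6 without replicate 1, and 5 without leukemic replicate 3.

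Storage proteins were the most abundant of this list. Fth1, the ferritin heavy chain, rose from 460 ± 92.1 FPKM (SD, n = 4) to 945 ± 71.9 (SD, n = 3), a difference of 1.06 (adjusted p = 0.0136 with limma; 0.0539 without preleukemic replicate 4). Ftl1, the light chain, measured 408 ± 30.5 FPKM in preleukemic and 533 ± 116 in leukemic samples, a difference of 0.36 that was not called (adjusted p = 0.140 with limma; 0.0210 without leukemic replicate 1). Light over heavy chain was 0.465, 0.626 and 0.588 in leukemic and 0.725 to 1.09 in preleukemic samples, with no overlap and no test, since the ratio was added after the values were seen. The iron chaperone genes Pcbp1, at 288 and 284 FPKM, and Pcbp2, at 213 and 180, were not called (adjusted p = 0.848 and 0.164 with limma; Pcbp2 0.0468 without leukemic replicate 2). The Pcbp1 difference of 0.02 turned to -0.12 with quantile normalization.

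Further genes of this list were chosen after their values were seen. Blvrb, a biliverdin reductase that also runs high in red cell precursors, rose from 21.5 ± 14.0 FPKM (SD, n = 4) to 135 ± 59.0 (SD, n = 3), a difference of 2.67 (adjusted p = 0.0171 with limma). Tfrc, the transferrin receptor that red cell precursors and dividing cells use, rose from 48.2 ± 8.85 to 127 ± 52.1 FPKM, a difference of 1.30 (adjusted p = 0.0334 with limma). Bach1, the heme-sensing repressor of Hmox1, was the 1 gene called lower, at 20.2 ± 1.39 FPKM in preleukemic and 14.1 ± 1.54 in leukemic samples, a difference of -0.49 (adjusted p = 0.0232 with limma). These 3 calls were lost without preleukemic replicate 4 (adjusted p = 0.0646, 0.102 and 0.0814 with limma) and without preleukemic replicate 3 (0.0558, 0.0928 and 0.0696). Tfrc and Bach1 also lost them without preleukemic replicate 2 (0.0770 and 0.0661), and Tfrc without preleukemic replicate 1 (0.0540), without leukemic replicate 2 or 3 (0.0635 and 0.0752) and with no filter (0.0525).

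**Figure D3:**
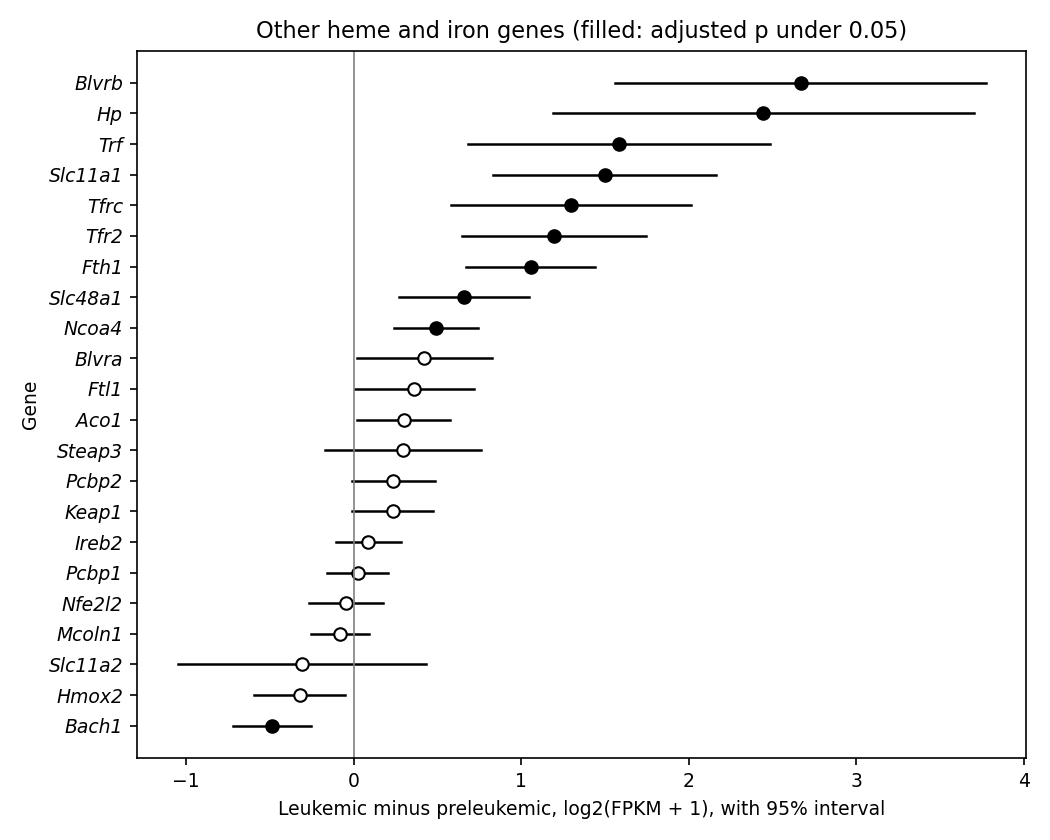
Leukemic minus preleukemic difference on the log2(FPKM + 1) scale with its 95% interval for the 22 tested genes of heme and iron handling other than Hmox1, Slc40a1 and Cd163, filled where the adjusted p was under 0.05. Points to the right of 0 are higher in leukemic samples, Blvrb has the largest difference, 2.67, and Bach1 is the 1 filled point on the left.

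Apoe, the apolipoprotein by which macrophages and liver export lipid (chromosome 7, 19696244 to 19699188, minus strand, 3 exons in the transcript counted, 1 of 2 with a RefSeq match), was the most abundant of the 10 genes in both groups. Its FPKM was 21.5, 112 and 75.7 in leukemic and 6.44, 8.68, 7.64 and 9.53 in preleukemic samples. The groups did not overlap, the lowest leukemic value being 2.26 times the highest preleukemic value. The difference was 2.69 (SE 0.50, adjusted p = 0.0183 with limma), 3.37 without leukemic replicate 1 and 2.21 without leukemic replicate 2. The call was lost without preleukemic replicate 2, 3 or 4 (adjusted p = 0.0535, 0.0573 and 0.0635 with limma).

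Of 20 other genes of lipoprotein and cholesterol transport 12 were tested, 3 were called higher and none lower, and the median difference was -0.14. The count ran from 1 to 4 when 1 sample was left out, with 1 call without leukemic replicate 1 or 2 or preleukemic replicate 2, 3 or 4, and 4 without leukemic replicate 3. Npc2, a lysosomal cholesterol carrier, measured 59.3 FPKM in leukemic and 64.6 in preleukemic samples (difference -0.16, adjusted p = 0.610 with limma), and the difference was 0.03 without leukemic replicate 1. Nr1h2, a nuclear receptor for oxysterols, measured 45.5 and 60.0 FPKM (difference -0.40, adjusted p = 0.106 with limma). Pltp, the phospholipid transfer protein and chosen after its values were seen, rose from 0.262 ± 0.151 FPKM (SD, n = 4) to 6.49 ± 3.34 (SD, n = 3), a difference of 2.49 (adjusted p = 0.00834 with limma). Pltp passed the filter only through its leukemic samples, and of the other 11 genes 2 were called higher.

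Ordered by mean level, the leukemic samples ran Apoe, C1qa, C1qc, Hmox1, C1qb, Csf1r, Slc40a1, Vcam1, Spic and Cd163. Neighbours in this order overlapped in range except Spic and Cd163. The preleukemic order was Apoe, Hmox1, C1qa, C1qb, Slc40a1, Vcam1, C1qc, Csf1r, Spic and Cd163, in which Apoe stood apart from Hmox1, Csf1r from Spic and Spic from Cd163. By mean, Csf1r was eighth in preleukemic samples and sixth in leukemic samples, but since neighbours overlapped this shift is a description. Its leukemic rank also differed by sample. In leukemic replicates 1 and 3 (11.3 and 15.2 FPKM) only Apoe lay above Csf1r. In leukemic replicate 2 (22.6 FPKM) only Spic and Cd163 lay below it.

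Among the 9 of the 10 genes that were tested, C1qb and C1qc varied the most in proportion between leukemic samples. Relative to C1q, the other genes differed in how far they varied. Over the 7 samples the highest ratio to C1q was 8.01 times the lowest for Cd163 and 4.48 times for Csf1r. For Vcam1 and Slc40a1 it was 2.05 and 2.04 times, near the 1.92 times of C1qc over C1qa. Csf1r over the geometric mean of C1qa, C1qb and C1qc was 2.45, 0.546 and 1.31 in leukemic and 0.577 to 0.818 in preleukemic samples. Apoe over the same mean was 4.67, 2.70 and 6.52 in leukemic and 2.72 to 5.69 in preleukemic samples. Vcam1 ran from 0.560 to 1.15 and from 0.654 to 1.04, and Slc40a1 from 0.639 to 1.08 and from 0.717 to 1.31. Hmox1 ran from 0.827 to 2.12 and from 1.16 to 2.24, Spic from 0.199 to 0.344 and from 0.160 to 0.560, and Cd163 from 0.0101 to 0.0330 and from 0.0272 to 0.0809. Each of these 7 ratios overlapped between the groups. In leukemic replicate 2, where every gene was highest, Csf1r, Vcam1, Hmox1, Slc40a1 and Apoe had their lowest leukemic ratio to C1q.

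**Figure D4:**
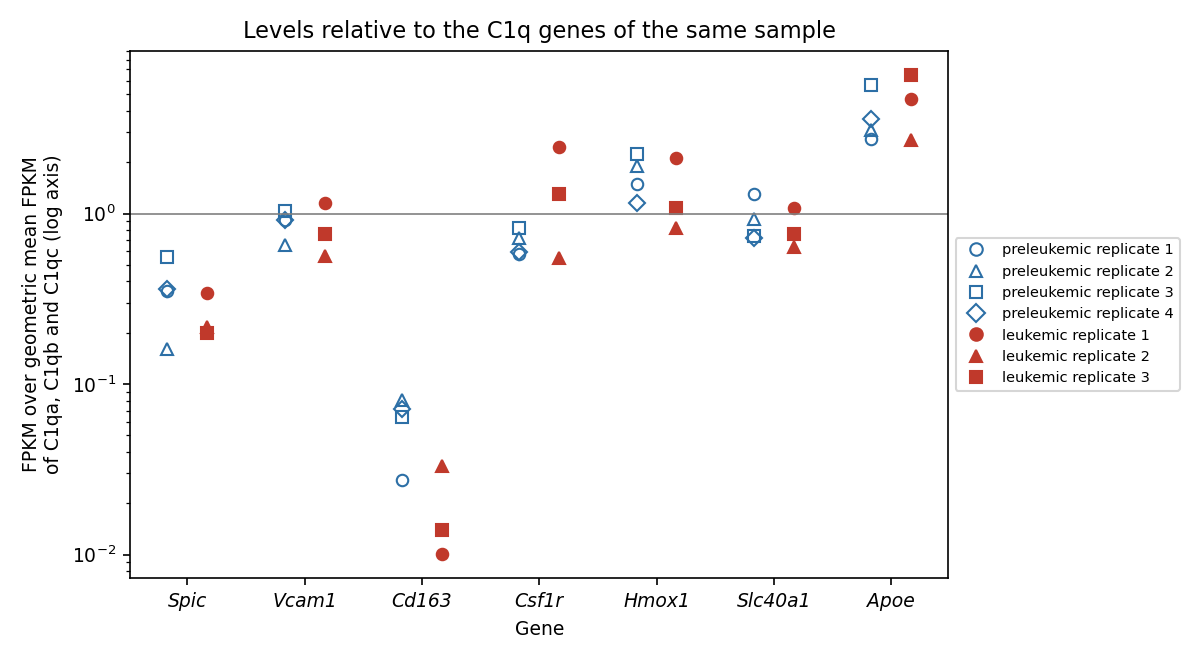
FPKM of 7 genes divided by the geometric mean FPKM of C1qa, C1qb and C1qc in the same sample (log axis), for 4 preleukemic (open) and 3 leukemic (filled) samples. The groups overlap for every gene, and leukemic replicate 2 lies lowest of the leukemic points for Csf1r, 0.546, and Apoe, 2.70.

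Of the other macrophage genes tested, 16 had a difference above 0, but the filter fixed the direction of many of them. Of 32 genes on this list, which also holds the Csf1r ligands Csf1 and Il34, 31 were measured and 19 tested. Of those tested, 12 were called higher, none lower and 7, with Csf1 among them, not called, and the median difference was 1.54. Of the 19 genes, 10 passed the filter only through their leukemic samples and so had to differ. The count of 16 and the median include these 10, and 8 of the 12 calls were among them, including Adgre1, Cd5l and Treml4. Of the other 9 genes 4 were called higher, while Maf, Lipa and Csf1 had differences below 0 and were not called. The count of 12 ran from 3 to 13 when 1 sample was left out: 3 without preleukemic replicate 4, 5 without preleukemic replicate 2 or 3 and 8 without leukemic replicate 3. Adgre1, which encodes F4/80, measured 1.44, 6.97 and 5.04 FPKM in leukemic and 0.332 to 0.624 in preleukemic samples, a difference of 1.75 (adjusted p = 0.0301 with limma). Its adjusted p was 0.0547 without leukemic replicate 2, 0.0669 without leukemic replicate 3 and 0.0581, 0.0725, 0.0831 and 0.0896 without each preleukemic sample. Fcer1g and Tyrobp, which encode signalling adaptors of myeloid receptors, rose by 2.55 (adjusted p = 0.00819 with limma) and 2.56 (adjusted p = 0.0123 with limma; 0.0510 without preleukemic replicate 4).

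The most abundant macrophage genes were not alike. Lyz2, lysozyme of macrophages and neutrophils, rose from 41.7 ± 22.7 FPKM (SD, n = 4) to 134 ± 25.7 (SD, n = 3), a difference of 1.80 (adjusted p = 0.0283 with limma). That call was lost without leukemic replicate 3 (0.0655) and without preleukemic replicate 2, 3 or 4 (adjusted p = 0.0599, 0.0789 and 0.0765 with limma). Lipa, the lysosomal acid lipase, measured 33.0 FPKM in leukemic and 40.7 in preleukemic samples, a difference of -0.36 that was not called (adjusted p = 0.326 with limma). Further genes of splenic macrophages, chosen after their values were seen, are Cd5l, at 0.622 ± 0.217 FPKM in preleukemic and 16.6 ± 13 in leukemic samples (difference 3.11, adjusted p = 0.0164 with limma), and Treml4, at 0.523 ± 0.319 and 7.62 ± 1.82 (difference 2.5, adjusted p = 0.00577 with limma). Cd5l lost its call without preleukemic replicate 2, 3 or 4 (adjusted p = 0.0503, 0.0549 and 0.0600 with limma). Siglec1, Vsig4, Marco and Timd4, markers of tissue macrophages chosen after their values were seen, were too low to test. Siglec1 measured 0.169 to 0.376 FPKM in leukemic and 0.0931 to 0.155 in preleukemic samples, and Vsig4 0.264 to 0.501 and 0.01 to 0.0590. Marco measured 1.13 to 1.77 and 0.190 to 0.411 FPKM, and Timd4 1.12 to 4.11 and 0.149 to 0.343. For these 4 genes the groups did not overlap. Other genes of this list, also chosen after their values were seen, did not separate the groups. Itgad (difference 0.85, adjusted p = 0.313 with limma) and Axl (0.87, adjusted p = 0.268 with limma) overlapped and were not called. The same held for Maf (difference -0.37, adjusted p = 0.458 with limma). Fcgr1 and Gpnmb were too low to test and overlapped as well.

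Markers of other cells differed in how far they followed these genes. All 13 red cell precursor markers tested were called higher, with a median difference of 4.05, and their sum was 1119 to 2605 FPKM in leukemic and 151 to 524 in preleukemic samples, highest in leukemic replicate 2. Platelet markers summed to 12.6 to 51.4 and 0.348 to 3.05 FPKM, also highest in leukemic replicate 2, and 4 of 4 tested were called higher, though all 4 passed the filter only through their leukemic samples. T and NK cell markers summed to 68.5 FPKM in leukemic replicate 2 and to 12.3 to 22.3 in every other sample, and limma called 0 of 7. Neutrophil markers summed to 1411 to 1752 and 149 to 864 FPKM, lowest among leukemic samples in replicate 2, with 3 of 9 called higher. Monocyte and dendritic cell markers summed to 15.7 to 29.2 and 2.64 to 8.24 FPKM, with 2 of 2 called higher, 1 of them tested only through its leukemic samples. Stromal markers summed to 3.35 to 8.25 and 0.776 to 1.10 FPKM, and all 10 lay below 1 FPKM in every preleukemic sample. Endothelial markers summed to 59.5 to 159 and 52.8 to 86.9 FPKM, which overlapped, with 1 of 3 called higher, which was tested only through its leukemic samples. Most of that sum was Pecam1 and Egfl7, which overlapped between the groups, as did Tek and Emcn at low levels. Cdh5, Kdr, Stab2 and Plvap were also low, but every leukemic sample lay above every preleukemic sample. Plvap measured 1.80 to 7.63 FPKM in leukemic and 0.159 to 0.448 in preleukemic samples. B-cell precursor markers summed to 3841 to 6102 FPKM in leukemic and 7817 to 9764 in preleukemic samples, with 4 of 13 called lower and none higher. The part of these cells in the values of the 10 genes was not tested.

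**Figure D5:**
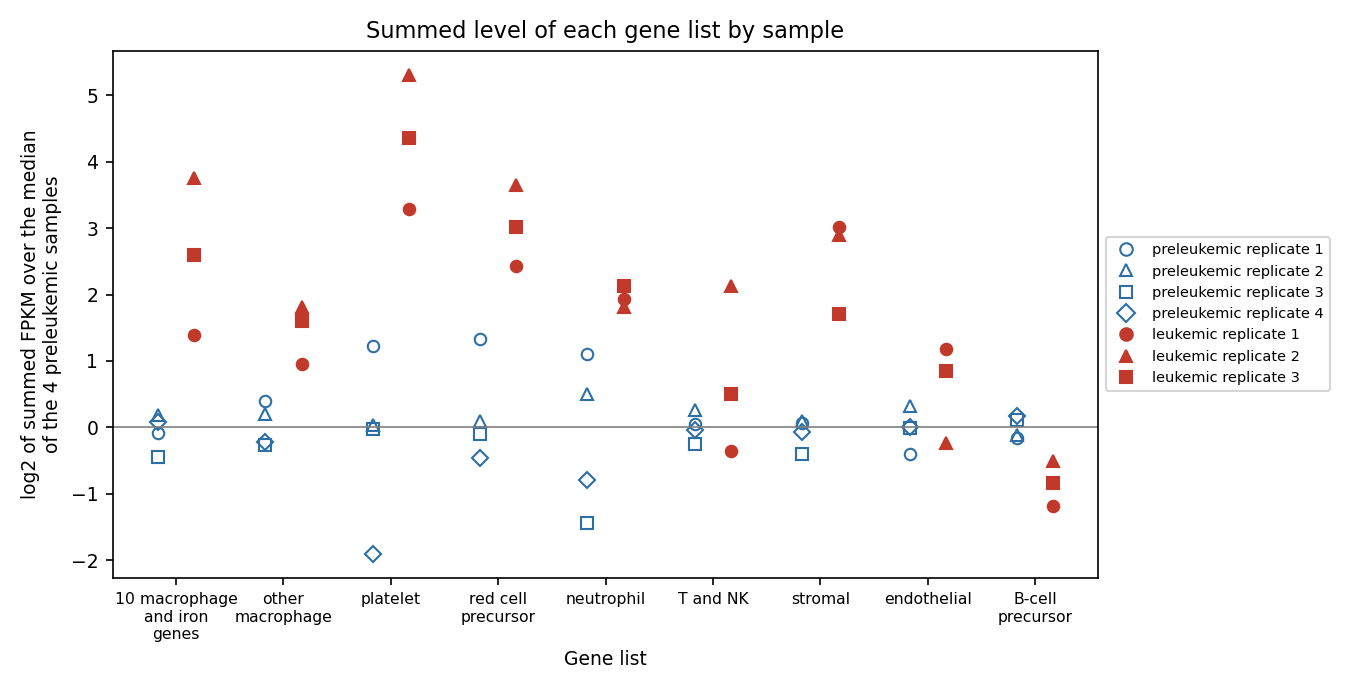
Summed FPKM of each gene list in each sample as log2 of its ratio to the median of the 4 preleukemic samples, with open preleukemic and filled leukemic points. The 10 macrophage and iron genes lie at 1.39, 3.75 and 2.60 in leukemic replicates 1, 2 and 3. Other macrophage genes (a list that includes Csf1 and Il34) and red cell precursor, platelet, and T and NK markers show the same order of leukemic replicates. So do B-cell precursor markers, which lie below 0 in all leukemic samples.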

How the data were processed

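RNA was measured by the authors in splenic BCP samples of 3 leukemic and 4 preleukemic mice, sorted per the labels, with a stranded mRNA kit, and samples were grouped by their labels. The authors deposited 1 FPKM value per gene and sample for 24341 genes. Per the labels, the submitters' processing notes name STAR 2.5.0b, Bowtie, bedtools 2.17.0, Cufflinks 2.2.1, DESeq2 and mm10, without roles. FPKM is not a count, so limma on log2(FPKM + 1) took the place of the count model in the paper's methods, whose threshold (0.05) was kept. That model filters on summed counts. The filter here was an FPKM sum of at least 10, which is stricter: Cd163, at about 137 fragments in all, did not pass it.

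Differences were fitted with limma 3.58.1 in R 4.3.3 (intensity trend, no covariates, two-sided) over 10541 genes and adjusted by Benjamini and Hochberg over all of them. On simulated data for the 10541 genes with 200 changed, the fit recovered 142 where the log2 change was 1 (6 false calls) and 187 where it was 2 (11 false calls). It made 0 calls where none was changed. How the fit calls genes whose spread differs between the groups was not tested separately. For each of the 10 genes the ratio of highest to lowest sample was larger in leukemic than in preleukemic samples. It was 11.0 against 2.48 for C1qc and 2.00 against 1.85 for Csf1r. P-values measure the spread between these mice. Depth was read from genes with 1 transcript of over 1500 bases, whose low values step in whole fragments: 69.5% to 71.4% came out whole within 0.05, against 10% by chance. Estimated fragments cover counting error only. FPKM sums were 448022 to 539887 per sample. Any pair of samples had at most 1 identical value above 0.01, so all 7 were treated as separate libraries. Gene positions follow the deposited table (GRCm38), with starts made 1-based. Of its symbols 23138 were found in RefSeq, 99.5% of them on the same chromosome.

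The 10 genes, the gene lists and the tests were chosen with earlier results of these data known. Named are the 10 genes, the 4 highest expressed tested genes of the heme and iron and of the macrophage list, the 2 highest of each other list, Hmox2, Enpep, Adgre1, and the 3 genes nearest to each of 3 patterns. Any other was chosen after its values were seen. Of the genes the rule names, 1 is not reported here. Listed genes whose symbols were not found in the table, and protein sequences, were not analysed here. Promoter windows were taken from RefSeq (GRCm38.p6). Alternatives were a pseudocount of 0.1, a filter at an FPKM sum of 70, no filter, quantile and median ratio scaling, no trend, a replicate block, and leaving out each sample. Other steps used Python 3.11.15, numpy 2.4.6, pandas 2.3.3, scipy 1.17.1 and matplotlib 3.10.9.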

Additional observations from a re-analysis of the deposited data

Results flagged for a closer look

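Among 53 genes examined, 2 had a preleukemic sample far from the other 3, and none was one of the 10 macrophage and iron genes. Ncoa4, the receptor that delivers ferritin for breakdown, stood apart in preleukemic replicate 4, with a gap of 0.976 of the group's range. That range was narrow: 7.71 FPKM there and 8.63 to 8.66 in the other 3. Cd59a, an inhibitor of complement, stood apart in preleukemic replicate 1, with a gap of 0.867 (1.03 FPKM there and 0.0468 to 0.177 in the other 3). Chance alone marks about 1 in 20 such groups.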

How the results depend on the processing

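No alternative turned the direction of any of the 9 tested macrophage and iron genes, and none of them was called lower under any. Over their 120 comparisons with an alternative, a call was kept in 52, lost in 29 and gained in 3, and in 36 a gene stayed not called. Csf1r was called under 12 of 13 alternatives, Apoe under 10 of 14 and Hmox1 under 9 of 14. Leaving out 1 sample gave 1 to 9 of them called, 149 to 1620 genes over the whole table, 0 to 11 heme and iron, 3 to 13 macrophage, 1 to 4 complement, 1 to 4 lipid transport and 0 to 1 integrin genes. With a stricter filter (an FPKM sum of 70), which leaves 7069 genes to test, 951 genes were called, among them 6 heme and iron, 3 macrophage and 0 complement genes. Of the 10 genes only Apoe, C1qa and Hmox1 passed this filter, and all 3 were called. With no filter 12 complement genes were called. With quantile normalization 754 genes were higher and 907 lower, against 893 and 660. Differences near 0 changed sign for Pcbp1 (-0.12 with quantile normalization, -0.018 with the replicate block, -0.018 to 0.065 leaving out 1 sample). Leaving out 1 sample also turned Npc2 (-0.41 to 0.032), Itga4 (-0.32 to 0.16) and Nfe2l2 (-0.14 to 0.0098). The cause was not tested.

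Same-numbered samples share only a number: the correlations of their deviations were 0.03, 0.05 and -0.09. With the replicate block, which in effect drops preleukemic replicate 4, limma called 0 genes over the whole table (2429 at an unadjusted p under 0.05), 0 of the 10 genes (adjusted p 0.0994 to 0.219), and 0 heme and iron, macrophage, complement and lipid transport genes.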

Other observations

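Genes whose pattern over the 7 samples was most like that of 3 macrophage patterns were sought among 8767 genes whose mean FPKM reached 5, by the root mean square distance of centred and scaled log2(FPKM + 1) values. Nearest to Spic were Mrps24 (0.131), Arf5 (0.177) and Pi4k2b (0.185), where the median gene was at 1.35. Nearest to Slc40a1 were Glrx5 (0.106), Cpeb4 (0.109) and Dnajb2 (0.131), with a median of 1.37. Nearest to the mean of C1qa, C1qb and C1qc were 1810058I24Rik (0.112), Irgm2 (0.132) and Cpeb4 (0.144), with a median of 1.36. On the same measure Vcam1 lay at 0.157 from the C1q mean, Slc40a1 at 0.168, Hmox1 at 0.231, Spic at 0.254, Apoe at 0.287 and Csf1r at 0.417. The samples share their libraries, so these distances are a description, and leukemic replicate 2 sets the highest point of each pattern. Scaling removes the size of a change. Among the genes named as nearest, the difference ran from 0.16 for Mrps24 to 1.44 for Dnajb2, and only Glrx5, Cpeb4 and Dnajb2 were called.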
